A study of Mus musculus with 6 samples.

Results

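The genes that make reactive oxygen species and the genes that remove them were followed in haematopoietic stem cells (HSCs) that lacked p190-B, a GTPase-activating protein encoded by Arhgap5. The list held 41 genes. They were taken by name, as the non-control probes of the array whose gene name was on the list, and the rule uses no measured value. All 41 were on the array, with 52 probes of 60 bases among its 39429. Total RNA from 6 samples of bone marrow HSCs of mice was hybridised to 1-colour Agilent arrays. There were 3 samples of cells from mice in their second round of transplantation with wild-type cells (2T-WT) and 3 with p190-B-/- cells (2T-p190-B-/-). Loss of p190-B is embryonic lethal, so the donor cells were fetal liver cells of p190-B-/- embryos or of wild-type littermates, on a C57BL/6J background and positive for CD45.2. They were given with CD45.1-positive competitor marrow to lethally irradiated congenic recipients, and marrow of those mice went on to secondary recipients. The cells were sorted as lineage-negative, c-Kit-positive, Sca-1-positive, CD150-positive and CD48-negative, a gate called LSK-SLAM. The gate as labelled names no marker of the donor, so residual host or competitor HSCs could not be told apart from donor HSCs. The cells came from independent mice sorted on separate occasions, per the study's legend, but whether each array held the cells of 1 mouse is not given in the labels. The p-values measure only the spread between these samples. The RNA of both groups was amplified as cDNA before labelling.

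Reactive oxygen species arise where an electron is passed to oxygen, either on purpose by NADPH oxidases or as a by-product of respiration. Superoxide dismutases turn superoxide into hydrogen peroxide, which catalase, the glutathione peroxidases and the peroxiredoxins reduce to water. The glutathione peroxidases and peroxiredoxins are recharged by the glutathione and thioredoxin systems at the expense of NADPH. The transcription factor Nrf2 (Nfe2l2), held low by Keap1, drives many of these genes through a DNA sequence called the antioxidant response element. Quiescent HSCs are known for low levels of reactive oxygen species, and a rise in them is tied to loss of self-renewal. The study measured reactive oxygen species by a dye and flow cytometry, which the arrays do not show.

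The signal scale of the arrays ran from 53.9 to 227 in the 2T-WT samples and from 252 to 385 in the 2T-p190-B-/- samples, as the 75th percentile of the processed signal, so every 2T-p190-B-/- array was brighter. Levels below are log2 signals relative to that percentile of the same array, and they compare 1 probe between arrays, never different probes. The software flagged 48.4% to 66.5% of probes as well above background in the 2T-WT group and 53.0% to 73.1% in the 2T-p190-B-/- group. The Arhgap5 probe exceeded background on 1 array, of the 2T-p190-B-/- group, so it gave no check of the genotype. Of the sort markers, Ly6a (Sca-1) was above background on all 6 arrays and Kit on 5, while Slamf1 (CD150) was above it on none and Cd48, which the gate leaves out, on all 6. The arrays lay on 3 slides: 2T-WT replicate 1 and 2T-p190-B-/- replicate 3 were each alone on a slide, and the other 4 shared the remaining slide. A difference fitted with the slide as a block therefore rests on those 4 arrays and not on all 6.

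What the data show of the 41 genes is first a matter of which could be read at all. Of the 52 probes, 18 were above background on all 6 arrays, 18 on 3 to 5, 9 on 1 or 2 and 7 on none. A probe was tested where it was above background on at least 3 arrays, which left 36 probes of 30 genes. The 11 genes without a tested probe were Nox3, Sod1, Sod3, Gpx3, Gpx7, Prdx4, Srxn1, Txn1, Gclc, Gclm and Nfe2l2. They include genes that nearly all cells use, such as Sod1, the cytosolic superoxide dismutase, and Txn1, the cytosolic thioredoxin. Fewer cells with a transcript and less transcript per cell cannot be told apart in such bulk RNA, and a dark probe gives no level at all.

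The member probes read on few arrays tended to have a low share of G and C, a feature that the choice of genes did not use. The 7 member probes above background on no array held 35.0% to 38.3% G and C. The 9 above background on 1 or 2 arrays held a median of 36.7%, and the richest of them, those of Sod1 and 1 for Prdx6, held the same share as the Sod2 probe, which was read on all 6. The 18 above background on all 6 held a median of 54.2%, with a range of 38.3% to 55.0%. Over the whole array, 15.3% of the 15152 probes with under 40% G and C were above background on all 6 arrays, against 73.7% of the 5415 probes with over 50%. This is a description of the probes, and its part in any result was not tested. The pattern also ran within some genes. Among 14 pairs of probes of the same member gene, the probe richer in G and C was above background on more arrays in 8. It was above background on fewer in 2, those of Cat and Gsr, and 4 pairs were tied. The pairs are not independent, since the 4 Prdx6 probes enter several of them. The first 30 bases of 3 of the 14 pairs are shown because 1 probe of each pair was read and the other was dark on every array. Capitals mark G and C, and all probes are written in the sense of the gene.
Prdx1, read on 3 arrays (38.3% G and C over the whole probe, mm9 chr4:116371818-116371877): CtGatGtCaataaGaGCaaaGaGtatttCt
Prdx1, read on 0 arrays (36.7%, mm9 chr4:116372422-116372481): aGGatCtaCttttCtaGtGCtGGttttata
Nox4, read on 4 arrays (43.3%, ends at mm9 chr7:94472458-94487478, across a splice junction): tGCCCCaGtGtatCaGCattaGaaaaCCaC
Nox4, read on 0 arrays (35.0%, mm9 chr7:94547025-94547084): CCttGCCtaatCtaaaCtCCaGtGCatGtt
Txnip, read on 5 arrays (53.3%, mm9 chr3:96364206-96364265): tGGaCGaCtCtCaaGaCaGCCCtatCttta
Txnip, read on 0 arrays (35.0%, mm9 chr3:96365147-96365206): CtaaGGtGatGttCttaGCaCtttaGCttG
The dark probe of all 3 genes lies closer to the end of the transcript than the probe that was read.

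**Figure D1:**
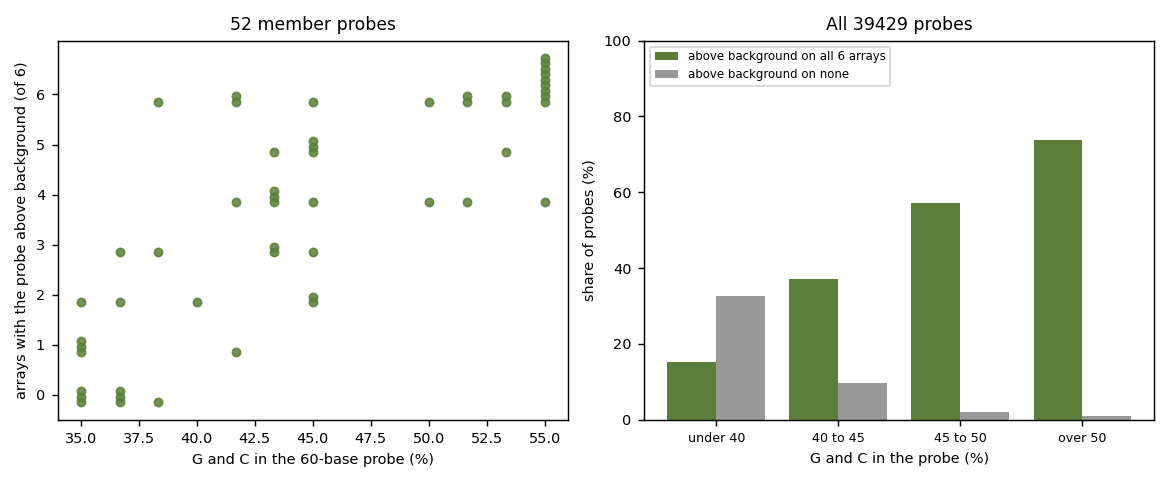
Left, the number of arrays of 6 on which each of the 52 member probes was above background, against the percent of G and C in the probe; probes at the same place are stacked upwards. Right, the share of all 39429 probes above background on all 6 arrays or on none, in 4 classes of G and C content; the share on all 6 was 15.3% under 40% and 73.7% over 50%.

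Whether loss of p190-B went with a change in these genes was asked by comparing the 2T-p190-B-/- with the 2T-WT samples. No member probe passed an adjusted p of 0.05 in limma's moderated test over all 25160 tested probes, and the smallest adjusted p of a member was 0.41 (Prdx1). No other probe passed either (0% of those tested). At an unadjusted limma p under 0.05 there were 3 member probes of 36 (8.33%), those of Prdx1 and Txnrd2, which read higher, and Gpx4, which read lower, against 6.57% of all tested probes (3.18% higher and 3.39% lower). The threshold of the study's gene lists, a 2-fold difference at a p of at most 0.05, applied with the methods' t-test, took 5 member probes (13.9%), against 6.41% of all tested (4.1% lower and 2.31% higher). These were the same 3 and, lower, Nox4 and 1 of the 2 probes of Nox1. That test left 5 member probes at an unadjusted p under 0.05, beside 1783 of all 25160 tested. After Benjamini-Hochberg adjustment it left 0 member probes. Prdx1 and Txnrd2 were above background on no 2T-WT array and on all 3 2T-p190-B-/- arrays. They thus met the filter only through the group in which they were higher. Their p-values describe that direction and are no independent test of it.

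Taking the brightest tested probe for each gene, 19 of the 30 tested members were lower in 2T-p190-B-/- and 11 higher, a share lower of 63.3% against 61.4% of all 21740 genes tested. Their median difference was -0.47 on the log2 scale, against -0.35 over all genes, with 18 of the 30 under that all-gene value. For 7 members (23.3%, against 16.1% of all genes), the 3 samples of each group lay wholly apart. Cybb, Nox4, Gpx4, Txn2 and Gsr lay lower on every 2T-p190-B-/- array (11.8% of all genes did) and Prdx1 and Txnrd2 higher (4.36% did). Before the scaling to the 75th percentile, the signals of the lower genes overlapped between the groups, while those of Prdx1 and Txnrd2 did not. Prdx1 and Txnrd2 met the filter through their 2T-p190-B-/- arrays alone. With 3 against 3 samples, an exact permutation test cannot go below a two-sided p of 0.1. Both medians moved with the scaling: when the 75th percentile was taken over probes above background on all arrays, they were -0.08 over all genes and -0.19 over members. With the normexp background correction they were -0.44 and -0.75, with 24 of 30 members lower, beside 68.3% of all genes. With 1 array left out, the member median ran from -0.27 (without 2T-WT replicate 1) to -0.59 (without 2T-WT replicate 3). The all-gene medians of those runs were -0.39 and -0.26, so the order of members and all genes turned. The member median also lay above that of all genes without 2T-WT replicate 2 (-0.31 against -0.38). With the slide as a block they were -0.44 and -0.50, with 14 of 30 members under the all-gene value.

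**Figure D2:**
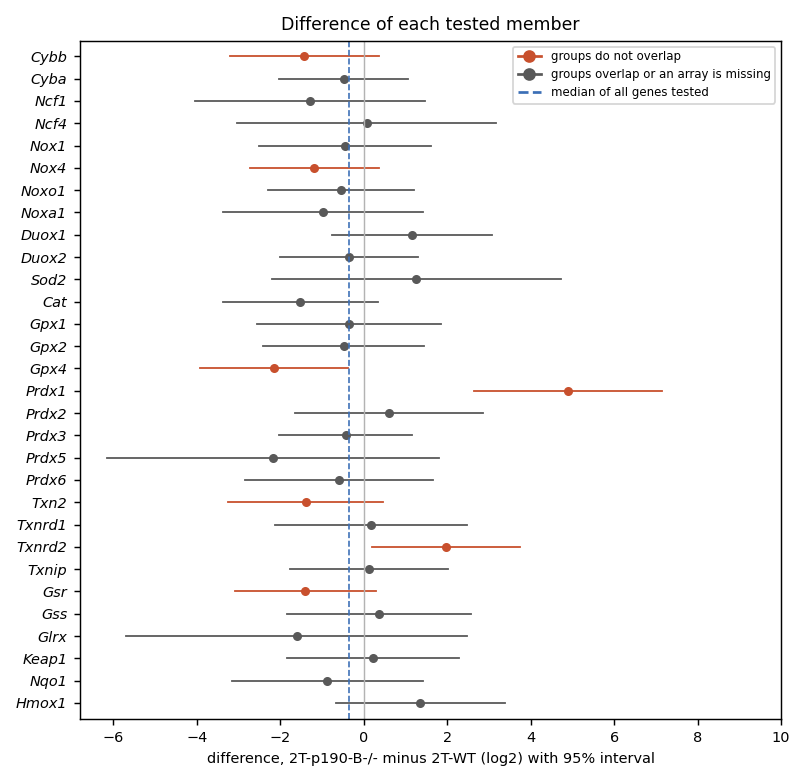
Difference between 2T-p190-B-/- and 2T-WT for the brightest tested probe of each of the 30 tested members, in log2 units with limma's 95% interval; coloured points are the 7 genes whose groups do not overlap, and the dashed line is the median of all genes tested (-0.35). Only the intervals of Gpx4, Prdx1 and Txnrd2 leave out 0, without adjustment for the number of probes tested. Prdx1 and Txnrd2 met the filter through the 2T-p190-B-/- arrays alone.

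Genes that make reactive oxygen species came to 11 members, of which 10 had a tested probe, 8 lower and 2 higher, with a median difference of -0.51. Cybb, the catalytic subunit of the phagocyte oxidase (gp91phox), read -2.45, -3.74 and -1.65 in 2T-WT and -3.78, -4.50 and -3.83 in 2T-p190-B-/-. The groups just missed each other, at -3.74 and -3.78, and the probe was above background on 2 arrays of 2T-WT and 1 of 2T-p190-B-/-. Its difference was -1.43 ± 0.78 (SE, n = 3 and 3; limma adjusted p = 0.64). Nox4, an oxidase that makes hydrogen peroxide without cytosolic partners, read -2.71, -2.25 and -1.67 against -3.11, -3.56 and -3.50, a difference of -1.18 ± 0.67 (adjusted p = 0.64). Its second probe was above background on no array. For Nox1, the dimmer of 2 tested probes read -1.80, -2.41 and -2.78 against -3.61, -3.73 and -4.27 (-1.54 ± 0.68, adjusted p = 0.64), whereas the groups overlapped on the brighter probe, which differed by -0.45 ± 0.90. The 3 probes with groups apart are thus dim ones, and before the scaling the groups overlapped on all 3. Beside them stands the behaviour of dark probes: the 6635 probes above background on no array differed by a median of -0.94 in the same direction, with array medians of -6.13 to -4.40 in 2T-WT and of -6.98 to -5.06 in 2T-p190-B-/-. The part of this floor in the lower readings of Cybb, Nox1 and Nox4 was not tested. Nox3, the oxidase of the inner ear, was above background on 1 array.

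Cyba (p22phox), the membrane partner of Cybb and of Nox1 to Nox4, was bright enough to be read on all 6 arrays. It read 0.36, -0.17 and -0.77 in 2T-WT and -0.83, -0.59 and -0.60 in 2T-p190-B-/-, so the groups overlapped (-0.48 ± 0.67, adjusted p = 0.82), and its other probe differed by -0.83 ± 0.88. Noxa1, an activator of Nox1, had the smallest p in this class among genes whose brightest probe was read on all 6 arrays. It read 1.498, 2.97 and -0.93 in 2T-WT and -0.39, 0.34 and 0.70 in 2T-p190-B-/-, within the wider 2T-WT range (-0.97 ± 1.04, adjusted p = 0.76). Without 2T-WT replicate 2 the difference was -0.071, and without 2T-WT replicate 3 it was -2.02. The organiser Noxo1 differed by -0.55 and the phagocyte organiser Ncf1 (p47phox) by -1.29, the latter without 2T-p190-B-/- replicate 2, whose spot was an outlier. Ncf4 (p40phox) differed by 0.07, with a 2T-WT range of -3.16 to 2.29. The dual oxidases split, with Duox1 at 1.16 ± 0.83 and Duox2 at -0.36 ± 0.72. Repeat spots of the Duox1 probe on an array had SDs of 0.05 to 0.47, against SDs between samples of 0.92 in 2T-WT and 0.99 in 2T-p190-B-/-. Single spots on 2T-WT replicate 1 still ran from -3.89 to -2.34, so the spots of that array also spread widely. No oxidase gene was separated from the spread between samples by limma after adjustment.

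**Figure D3:**
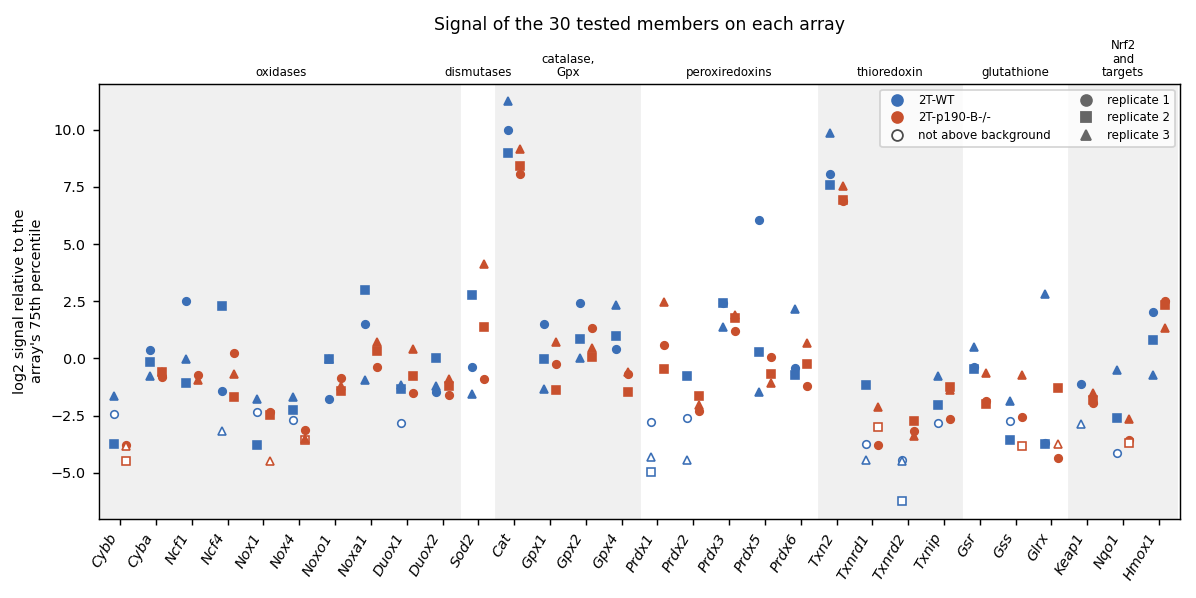
Log2 signal of the brightest tested probe of each of the 30 tested members on the 3 2T-WT and the 3 2T-p190-B-/- arrays, relative to the array's 75th percentile; symbols give the replicate and open symbols a probe not well above background. Heights compare groups within a gene, not genes with each other; Prdx1 and Txnrd2 are open on every 2T-WT array and filled on every 2T-p190-B-/- array.

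Of the dismutases only Sod2, the mitochondrial enzyme, had a tested probe. It read -0.36, 2.76 and -1.57 in 2T-WT and -0.90, 1.39 and 4.14 in 2T-p190-B-/-, and the groups overlapped widely (a difference of 1.26, adjusted p = 0.79). The difference turned to -0.35 with the slide as a block and to -0.035 without 2T-p190-B-/- replicate 3. Sod1 was above background on 2T-WT replicate 2 and 2T-p190-B-/- replicate 1, and Sod3, the secreted enzyme, on 2T-p190-B-/- replicate 1.

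All 4 tested genes among catalase and the glutathione peroxidases were lower, with a median difference of -0.998, and 1 had groups that did not overlap. Gpx4, the selenoenzyme that reduces lipid hydroperoxides in membranes, was above background on all 6 arrays. It read 0.41, 0.99 and 2.34 in 2T-WT and -0.69, -1.45 and -0.57 in 2T-p190-B-/-, so every 2T-p190-B-/- sample lay below every 2T-WT sample. The difference was -2.15 ± 0.77 (limma adjusted p = 0.64). It was -2.74 with the slide as a block, a fit that rests on the 4 arrays of the shared slide. Under all other settings tried it stayed below 0, with -1.53 as the value nearest to 0. Before the scaling, Gpx4 signals were 165, 450 and 274 in 2T-WT and 238, 117 and 170 in 2T-p190-B-/-. Those groups overlapped. Gpx1, the cytosolic enzyme, differed by -0.35 and Gpx2, the gut form, by -0.48, both with overlapping groups. Gpx3, the plasma form, was above background on 2 arrays and Gpx7 on none.

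Catalase (Cat), which splits hydrogen peroxide in peroxisomes, differed by -1.52 ± 0.81 on its bright probe (adjusted p = 0.64), which read 9.97, 8.97 and 11.25 in 2T-WT and 8.07, 8.43 and 9.14 in 2T-p190-B-/-. Its dimmer probe differed by -0.62 ± 0.83. The bright probe ranked 203 of 39429 by mean signal, and its sequence is shown because it carries a run of the dinucleotide CA, in capitals.
Cat, bases 27 to 56 of the probe at mm9 chr2:103294487-103294546: cacatacCACACACACACACACAtgcaata
Of the 500 brightest tested probes, 38.8% held at least 8 bases of such a repeat (CACACACA or ACACACAC, either strand), against 1.25% of all probes. These 500 differed by a median of -1.32, with 99.6% of them lower in 2T-p190-B-/-. After quantile normalization, the median over the 500 was 0.03 and the bright Cat probe differed by -0.18, so the size of its difference hangs on how the brightest probes are scaled.

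The peroxiredoxins held both the gene with the highest and the gene with the lowest difference of the 30 tested. Prdx1, the abundant cytosolic peroxiredoxin, read -2.78, -4.99 and -4.29 in 2T-WT and 0.57, -0.44 and 2.46 in 2T-p190-B-/-. No 2T-WT array lifted it well above background, whereas all 3 2T-p190-B-/- arrays did. The fitted difference was 4.88 ± 0.98 (limma adjusted p = 0.41). Set against the mean of the lowest log2 signals that could be read on the 2T-WT arrays, the 2T-p190-B-/- mean was 14.4-fold higher (3.85 on the log2 scale). This fold holds for the main scaling and is no lower limit, since another background correction gave a smaller difference. The same figure was 8.31-fold without 2T-p190-B-/- replicate 3, the brightest, and up to 22.7-fold without 2T-p190-B-/- replicate 2. The fitted difference was 1.78 under the normexp background correction, which lifts dim signals, and lay between 4.09 and 5.54 with 1 array left out. The other Prdx1 probe was above background on no array, so the difference rests on 1 probe, and it did not pass the adjusted threshold in any of the settings tried. Prdx5, found in mitochondria, peroxisomes and cytosol, read 6.04, 0.28 and -1.46 in 2T-WT and 0.06, -0.67 and -1.06 in 2T-p190-B-/-. Its difference of -2.18 ± 1.73 (adjusted p = 0.68) came from 2T-WT replicate 1: without that array it was 0.033, and with the slide as a block 0.28.

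The probe of the mitochondrial Prdx3 was spotted 10 times on each array, with an SD of 0.08 to 0.13 between spots. It ranged from 1.36 to 2.43 in 2T-WT and from 1.22 to 1.92 in 2T-p190-B-/-, so the groups overlapped at -0.43 ± 0.69 (adjusted p = 0.85). Prdx2, the red cell peroxiredoxin, differed by 0.61 and Prdx6, which uses glutathione, by -0.59 and -0.17 on its tested probes. The other 2 Prdx6 probes were each above background on 2 arrays, and they were different arrays. Prdx4, the peroxiredoxin of the endoplasmic reticulum, was above background on no array, and Srxn1 (sulfiredoxin), which repairs overoxidised peroxiredoxins, on 2.

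In the thioredoxin system, 3 of 4 tested genes were higher and 1 lower. Groups lay apart for Txn2 and Txnrd2, which belong to the same mitochondrial couple and went opposite ways. Txn2, mitochondrial thioredoxin, read 8.09, 7.60 and 9.84 in 2T-WT and 6.88, 6.94 and 7.53 in 2T-p190-B-/- (-1.39 ± 0.80, adjusted p = 0.64). Its probe ranked 387 of 39429 by mean signal, within the range where nearly all probes were lower, and after quantile normalization it differed by -0.11. That probe too carries a repeat, of the triplet AGG, in capitals.
Txn2, bases 2 to 31 of the probe at mm9 chr15:77745481-77745540: gtccctgagcAGGAGGAGGAGctgtgaaca
A run of 8 bases of this repeat (any of its 3 phases, either strand) was held by 8.80% of the 500 brightest tested probes and by 1.03% of all probes. Txnrd2, the mitochondrial reductase that recharges Txn2, read -4.42, -6.25 and -4.50 in 2T-WT and -3.15, -2.74 and -3.38 in 2T-p190-B-/-. It was above background on no 2T-WT array and on all 3 2T-p190-B-/- arrays, with a fitted difference of 1.97 ± 0.77 (limma adjusted p = 0.64). Its 2T-p190-B-/- mean lay under the mean of the lowest readable signals of the 2T-WT arrays (-3.09 against -2.99), so no fold is given. The Txnrd2 difference turned to -0.72 under the normexp correction. The cytosolic reductase Txnrd1 differed by 0.17. Txnip, the inhibitor of thioredoxin, differed by 0.13 on its readable probe. Txn1 was above background on no array.

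Of the genes for glutathione synthesis and recycling, 2 of 3 tested were lower. Gsr, glutathione reductase, read -0.36, -0.45 and 0.52 in 2T-WT and -1.85, -1.997 and -0.64 in 2T-p190-B-/- on its brighter probe, which was above background on all 6 arrays. The groups did not overlap (-1.40 ± 0.73, adjusted p = 0.64), and with the slide as a block the difference was -1.96. Before the scaling, the signals of this probe were 97.0, 166 and 77.5 in 2T-WT and 107, 80.3 and 161 in 2T-p190-B-/-. Those groups overlapped. The other Gsr probe, which lies just upstream in the same transcript, went the same way with overlapping groups (-0.85 ± 0.81). Glrx, glutaredoxin, differed by -1.60 ± 1.77, a value set by 2T-WT replicate 3 at 2.81 while the other 2T-WT arrays read -3.68 and -3.72. Gss, glutathione synthetase, differed by 0.36. The subunits of the enzyme that limits glutathione synthesis could not be tested: Gclc, the catalytic subunit, was above background on no array, and Gclm, the modifier, on 2T-p190-B-/- replicate 1 alone, where it read 1.20 against -5.15 and -4.91 on the other 2T-p190-B-/- arrays.

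Nfe2l2 itself was above background only on 2T-p190-B-/- replicate 1, at -2.71, with -4.19 and -4.91 on the other 2T-p190-B-/- arrays and -4.58, -4.88 and -3.83 in 2T-WT, so it was not tested. Its inhibitor Keap1 read -1.10 and -2.87 in 2T-WT, where the spot of replicate 2 was an outlier, and -1.95, -1.81 and -1.52 in 2T-p190-B-/- (0.22 ± 0.87, adjusted p = 0.94). That difference had no steady sign, at -0.67 without 2T-WT replicate 3 and -1.09 with the normexp correction. Hmox1, haem oxygenase 1, read 2.04, 0.81 and -0.71 in 2T-WT and 2.51, 2.35 and 1.35 in 2T-p190-B-/- on its brighter probe (1.36 ± 0.88, adjusted p = 0.64), with groups that overlapped, and 0.08 ± 0.91 on the other. Without 2T-WT replicate 3 the difference on the brighter probe was 0.64, and with the slide as a block 2.38. Nqo1, a quinone reductase and a standard readout of Nrf2, differed by -0.87 ± 1.00. The 3 tested genes of this class thus held 2 higher and 1 lower, none apart from the spread between samples.

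The core of the antioxidant response element (TGACNNNGC, either strand) was looked for in RefSeq promoters of GRCm38.p6, each 250 bases before to 50 after a start. Promoters were given for 35 of the 41 members; Ncf4, Sod3, Prdx6, Gsr, Gclc and Hmox1 had none. The core was in 6 of 41 member promoters (14.6%) and in 12.4% of all 32851 promoters. The sites that lie before the start are shown with the core in capitals because they include that of Prdx1; where the core lies on the other strand it reads GCNNNGTCA.
Nfe2l2 (GRCm38.p6 chr2:75704870-75704913, minus strand): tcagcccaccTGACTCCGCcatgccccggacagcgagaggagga
Gclm (GRCm38.p6 chr3:122245398-122245456, plus strand): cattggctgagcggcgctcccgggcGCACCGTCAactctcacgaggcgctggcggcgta
Prdx1 (GRCm38.p6 chr4:116685441-116685499, plus strand): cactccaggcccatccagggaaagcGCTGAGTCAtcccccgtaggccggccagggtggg
Txnrd1 (GRCm38.p6 chr10:82859089-82859147, plus strand): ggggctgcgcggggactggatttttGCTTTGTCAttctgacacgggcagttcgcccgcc
Sod1 (GRCm38.p6 chr16:90220681-90220739, plus strand): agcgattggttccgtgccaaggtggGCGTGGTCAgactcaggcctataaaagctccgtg
The remaining site, in Srxn1, lies after the start. Of the 6 genes, Prdx1 (4.88) and Txnrd1 (0.17) had a tested probe, and Nfe2l2 and Gclm were each read on 2T-p190-B-/- replicate 1 alone. Sod1 was read on 2T-WT replicate 2 and 2T-p190-B-/- replicate 1, and Srxn1 on replicate 3 of each group. The array with the largest share of member probes above background was 2T-p190-B-/- replicate 1 (80.8%). A match of letters is a description of these windows and not a measured binding site.

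A wider list of 130 genes around the same chemistry had 74 with a tested probe. Of these, 40 were lower and 34 higher, with a median difference of -0.09. The sign of that median turned with the scaling. It was 0.18 when the 75th percentile was taken over probes above background on all arrays, with 36 lower, beside 52.6% of all genes. For 14 of them (18.9%, 7 in each direction) the groups lay apart, against 16.1% of all genes. None passed the adjusted threshold in limma. The smallest p among higher genes was that of Bach2, a repressor that competes at antioxidant response elements and is best known in B cells. It read -4.52, -2.72 and -1.81 in 2T-WT and 2.08, 1.00 and 0.58 in 2T-p190-B-/- (4.24 ± 0.90, adjusted p = 0.46). Foxo4, a forkhead factor of stress resistance, was above background on no 2T-WT array and read 0.80, -1.84 and -2.78 in 2T-p190-B-/-. Its 2T-p190-B-/- mean was 3.28-fold above the mean of the lowest readable signals of the 2T-WT arrays, and 1.60-fold without 2T-p190-B-/- replicate 1. The limma adjusted p of its fitted difference was 0.64. Foxo4 too met the filter through the 2T-p190-B-/- arrays alone, and these folds are no lower limits. Epx, eosinophil peroxidase, differed by 2.31 ± 0.93 (adjusted p = 0.64) and was above background on 1 array of 2T-WT and 2 of 2T-p190-B-/-. Among lower genes, Nnt, which makes NADPH in mitochondria, differed by -2.03 ± 0.77 and the cytosolic malic enzyme Me1 by -1.82 ± 0.84. The oxidase switch Rac1 differed by -1.54 ± 0.77. Each had an adjusted p of 0.64. Nnt was above background on 2 arrays of each group, Me1 on 2 of 2T-WT and 1 of 2T-p190-B-/-, and Rac1 on 3 and 2. Probes dark on every array differed by a median of -0.94 in the same direction. The part of that floor in these 3 readings was not tested. All 6 genes named from this list had groups that did not overlap. By role, beside 61.4% of all genes, the lower genes were 3 of 4 tested oxidase partners, 6 of 6 other oxidant sources, 8 of 11 genes of NADPH supply, 3 of 3 further glutaredoxins and thioredoxins and 2 of 2 methionine sulphoxide reductases. They were 8 of 16 glutathione transferases and related genes, 4 of 8 HSC redox regulators, 5 of 16 partners and targets of Nrf2, 1 of 6 metal-binding genes and 0 of 2 further peroxidases. Differences between these roles were not tested.

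Summed signals of erythroid and B cell markers lay apart between the groups, and those of the other cell types listed overlapped. The summed linear signal of 15 erythroid markers ran from 328 to 988 in 2T-WT and from 215 to 303 in 2T-p190-B-/-, and that of 11 B cell markers from 129 to 1056 and from 83.3 to 116. Each sum was mostly set by few probes. Ermap read 9.18, 8.33 and 9.94 against 7.77, 7.71 and 8.21, and it ranked 294 by mean signal. It was thus among the 500 brightest tested probes, of which 99.6% were lower in 2T-p190-B-/-. Among B cell markers, Cd22 read 7.11, 6.93 and 8.36 against 6.24, 6.44 and 6.77 and ranked 553, while Cd79a stood at 9.47 on 2T-WT replicate 3 and at or under -1.65 elsewhere. Markers of a class did not all go the same way. The erythroid Slc4a1 read -0.32, -0.17 and -1.25 in 2T-WT against 1.05, 0.29 and 1.53 in 2T-p190-B-/-. Blk, of B cells, read -1.08, -1.14 and -1.38 against -1.05, -0.28 and -0.25. Sums of 8 HSC markers overlapped, at 39.96 to 143 against 28.7 to 64.0. Among them Fgd5 read 5.83, 5.15 and 7.06 against 4.42, 4.47 and 5.38. Mecom read -0.13, 1.20 and 0.77 against 2.37, 1.34 and 4.36. Of the 15 erythroid markers, 6 were above background on all 6 arrays, Hba-a1 among them, and 4 on none, Hbb-b1 among them. Of the 11 B cell markers, 6 were above it on all arrays. Sums overlapped for 15 neutrophil markers (11.97 to 15.98 against 9.06 to 25.4), 12 of monocytes and macrophages (61.9 to 162 against 33.4 to 69.7), 8 of T cells (71.5 to 163 against 63.3 to 91.1) and 10 of megakaryocytes (16.3 to 29.99 against 13.04 to 52.1). Erythroid markers were above background in 6 to 9 of 15 on the 2T-WT arrays and in 7 or 8 on the 2T-p190-B-/- arrays, and B cell markers in 7 to 10 of 11 in both groups. Neutrophil markers were above background in 6 to 11 of 15 and in 8 to 12. The part of these cells in the readings of the oxidase and peroxidase genes was not tested.

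**Figure D4:**
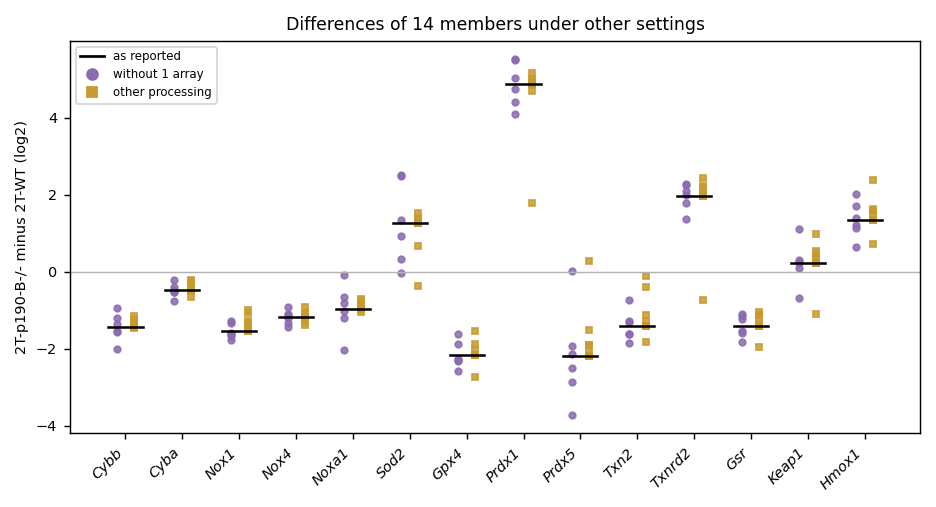
Difference between 2T-p190-B-/- and 2T-WT, in log2 units, of the 14 tested members followed across settings, Cat not among them. Lines give the values as reported, circles those with 1 array left out and squares those under other processing. Nox1 and Nox4 are given by their probes with groups apart. Prdx1 stays above 0 throughout, down to 1.78, and Gpx4 below 0, up to -1.53, while Sod2, Prdx5, Txnrd2 and Keap1 cross 0.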

How the data were processed

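HSC RNA was amplified, labelled with Cy3 and read by Agilent Feature Extraction 10.5.1.1, per the file headers. The deposited values used were the intensity of each spot as processed by the software and its flags, with probe coordinates on mm9. The authors' series table, linear intensities divided by 1 number per array, served as an alternative. Outlier spots were removed, log2 intensity was taken relative to each array's 75th percentile, and spots of a probe were averaged. Probes were named by RefSeq accession or symbol (26406 and 3859) and otherwise by the file. Probes well above background on at least 3 arrays were tested with limma 3.58.1 in R 4.3.3, with Benjamini-Hochberg adjustment over all of them. The fit was tested on simulated data. Members with groups apart and a 2-fold difference, the best-read member of each class, and Cybb, Cyba, Nox4, Nfe2l2 and Keap1 have their readings on each array given, outlier spots apart; of the wider list, the 3 genes with the smallest p in each direction are named. Members, lists and tests were chosen with earlier results of these data known, and the summaries of G and C content, repeats and the 500 brightest probes, and the folds over the lowest readable signals with 1 array left out, were added after seeing the values. The number of arrays limits the precision.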

Additional observations from a re-analysis of the deposited data

How the results depend on the processing

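No member probe passed the adjusted threshold under any setting tried. The count at an unadjusted p under 0.05 was 3 as reported, against 6.57% of all probes. It was 5 with the methods' t-test (1783 of all 25160 probes) and 9 with the normexp correction (14.4% of all probes). Among the 18 probes above background on all 6 arrays it was 1 (7.24% of all probes so read). With 1 array left out it was 1 to 4, against 4.2% to 9.7% of all probes. The count past the threshold of the study's gene lists was 5 as reported, against 6.41% of all probes. It was 9 with normexp (11.9% of all probes) and 1 among probes above background on all 6 arrays (6.21%). With 1 array left out it was 2 to 6, against 3.97% to 9.43% of all probes. It was 3 with limma's p, 2 with the slide as a block and 3 with the replicate block, without a share over all probes. Replicate numbers did not pair the samples (correlations of 0.01, 0.02 and 0.09 between deviations of same-numbered samples), and the block left 0 calls. Members with groups apart numbered 7, against 11 of 30 with normexp (22.6% of all genes), 3 of the 15 above background on all 6 arrays (17.6%) and 8 to 11 with 1 array left out, where the share over all genes also rose, to between 23.1% and 32.7%. With 1 array left out, members lower ran from 19 to 22, beside 59.5% to 63.7% of all genes. Their median then ran from -0.59 to -0.27, and that of all genes from -0.45 to -0.26. With normexp, 24 members were lower, beside 68.3% of all genes, and the medians were -0.75 and -0.44. For the wider list, the median was 0.18 with the percentile over probes above background on all arrays and 0.027 with the authors' values. Each had 36 of 74 lower, beside 52.6% and 57.4% of all genes. The median was 0.015 with the mean over a gene's probes and -0.37 with the slide as a block. With normexp it was -0.43, with 57 lower, beside 68.3% of all genes. In that list, lower genes numbered 80 of 127 with no filter on dim probes (against 66.1% of all genes), median -0.54. Of the 36 above background on all 6 arrays, 21 were lower (against 67.3%) and 6 had groups apart (against 17.6%). With 1 array left out, 38 to 42 were lower, beside 59.5% to 63.7% of all genes, and the median ran from -0.27 to -0.08. Groups then lay apart for 18 to 26, beside 23.1% to 32.7% of all genes. Differences turned sign for Txnrd2 (-0.72) and Keap1 (-1.09) with normexp, for Sod2 (-0.35) and Prdx5 (0.28) with the slide as a block, for Prdx5 without 2T-WT replicate 1 (0.033), for Keap1 without 2T-WT replicate 3 (-0.67) and for Sod2 without 2T-p190-B-/- replicate 3 (-0.035); the cause was not tested. With 1 array left out the range was -0.035 to 2.50 for Sod2, -3.72 to 0.033 for Prdx5 and -0.67 to 1.11 for Keap1. The 10 other members followed across settings kept their direction in all of them. Cat was not among those followed. Without 2T-WT replicate 3, Cybb stood at -0.95, Txn2 at -0.73 and Cyba at -0.77. Blocks and the variance model leave readings as they are, so they gave no count of groups apart, and the variance model no t-test count. Differences with the slide as a block rest on the 4 arrays of the slide that held both groups. The plot of differences under other settings shows each value. Signal over background sets the limit for the genes with dim or dark probes.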
